A study of Mus musculus with 10 samples.

Results

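Most of the genes described here encode subunits of the 5 complexes of oxidative phosphorylation. They were taken from a table of 25239 gene symbols by name, as every row whose symbol begins with Nduf and an a, b, c, s or v series number, with Uqcr, with Cox of the numbered a, b or c series, or with Atp5, or is Sdha, Sdhb, Sdhc or Sdhd, and that had at least 50 counts over all libraries. Of 86 matching symbols 84 met the count minimum: 38 of complex I, 4 of complex II, 8 of complex III, 17 of complex IV and 17 of complex V. Cox7b2 with 19 counts and Cox8c with 6 lay below it, and the members closest above it were Ndufs5 with 78 and Cox6a2 with 181. The count minimum used total counts, not the difference between groups, but the members and the rule were chosen with earlier results of these data known. Among the members, 4 are rows of copies of other genes (Ndufb4c, Ndufa11b, Ndufs5-ps and Cox7c-ps1). The rule leaves out the subunit genes Cox4i1 and Cyc1.

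RNA was sequenced from 10 libraries of cells sorted by flow cytometry from mouse calvarial sutures (fibrous seams where skull bones meet) on postnatal day 7. The labels name a DDR2-plus group, after the collagen receptor DDR2, and a PSC group, an abbreviation that they do not expand, with 5 libraries each. The genotype is given as WT for all 10, while the protocol names Ctsk-Cre mice, in which the cathepsin K gene drives the recombinase; no treatment is given for either group, and no reporter allele is named. Since the source animal of each library is not labelled, the p-values reflect variation among the libraries alone, part of which may be technical.

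In the mitochondrial inner membrane, complex I (NADH dehydrogenase) and complex II (succinate dehydrogenase) pass electrons to coenzyme Q, complex III passes them on to cytochrome c, and complex IV (cytochrome c oxidase) hands them to oxygen. Complexes I, III and IV pump protons, and complex V, the ATP synthase, uses the resulting gradient to make ATP. Except for complex II, each complex joins subunits of the nuclear genome with subunits of the mitochondrial genome; the mitochondrially encoded genes were not analysed here. Promoters of the nuclear subunit genes are known for binding sites of NRF1, of ETS-family factors such as GABP, of YY1 and of estrogen-related receptors.

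The promoters of 4 members are printed as examples of windows with and without these letters. The sequences are the 250 bases before the RefSeq start in build GRCm38.p6, written 5′ to 3′ on the gene's strand, and capitals mark matches to GCGCATGC (NRF1) or its reverse complement; overlapping matches on opposite strands merge into a single run. Cox6a1, Atp5k and Sdhb, of complexes IV, V and II, hold the NRF1 letters, and Ndufa4, of complex IV, holds none of the NRF1, ETS, YY1 or ERR letters searched.
Cox6a1 (chr5:115348959-115349208, minus strand): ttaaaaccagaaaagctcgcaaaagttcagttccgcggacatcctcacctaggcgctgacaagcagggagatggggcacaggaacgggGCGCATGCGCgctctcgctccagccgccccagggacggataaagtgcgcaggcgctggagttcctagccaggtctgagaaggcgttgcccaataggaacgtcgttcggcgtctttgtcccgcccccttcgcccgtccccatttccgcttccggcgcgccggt
Atp5k (chr5:108434400-108434649, minus strand): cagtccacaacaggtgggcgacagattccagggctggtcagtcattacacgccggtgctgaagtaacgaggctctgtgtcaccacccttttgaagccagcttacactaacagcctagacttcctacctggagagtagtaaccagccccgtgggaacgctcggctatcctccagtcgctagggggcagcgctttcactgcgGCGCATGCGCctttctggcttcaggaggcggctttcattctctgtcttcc
Sdhb (chr4:140961021-140961270, plus strand): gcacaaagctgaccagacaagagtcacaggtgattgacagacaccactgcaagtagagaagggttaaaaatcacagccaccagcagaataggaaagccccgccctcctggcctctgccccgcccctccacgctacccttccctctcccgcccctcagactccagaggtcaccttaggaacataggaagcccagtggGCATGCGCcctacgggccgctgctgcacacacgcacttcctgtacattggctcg
Ndufa4 (chr6:11907451-11907700, minus strand): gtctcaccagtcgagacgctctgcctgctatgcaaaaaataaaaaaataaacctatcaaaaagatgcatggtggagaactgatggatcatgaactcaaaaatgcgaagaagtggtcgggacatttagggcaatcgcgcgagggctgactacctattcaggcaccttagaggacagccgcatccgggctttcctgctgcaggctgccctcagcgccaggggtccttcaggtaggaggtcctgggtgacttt

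Of the 67 members with a promoter in the RefSeq table, 14.9% held GCGCATGC on either strand between 250 bases before and 50 after the start, against 3.0% of 27025 genes with such a window and 5.5% of the 12054 that were also tested for expression. ACCGGAAG, the ETS letters, was held by 10.4% of members, 2.6% of all and 4.7% of tested genes. AAGATGGCG, the YY1 letters, was held by 10.4%, 1.6% and 3.1%, and AAGGTCA, the ERR letters, by 11.9%, 5.4% and 3.9%. GGGCGG, the SP1 letters, was found in 40.3% of member windows, 38.2% of all and 66.5% of tested genes, and CCAAT in 43.3%, 41.1% and 42.7%. Letters were searched on both strands, and GCGCATGC can overlap itself on the opposite strand, as in Cox6a1. These shares are descriptions of short windows and were not tested. By the test described below, with TMM scaling, 7 of the 10 members holding GCGCATGC were lower in DDR2-plus. So were 28 of the 56 tested members without it, beside 19.0% of all genes tested. For the ETS letters 3 of 7 holders and 32 of 59 other members were lower, and for YY1 5 of 7 and 30 of 59. For ERR these counts were 4 of 7 tested and 31 of 59, for SP1 14 of 27 and 21 of 39, and for CCAAT 15 of 29 and 20 of 37. A link between the letters and the direction of change was not tested.

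Values are CPM (each count relative to its library's size) after TMM scaling, which multiplies each library's size by a factor that centres the log ratios of most genes, and fold changes are DDR2-plus over PSC on the log2 scale. A gene is called where the quasi-likelihood test of edgeR gave an adjusted p under 0.05 over all 15416 genes tested; Ndufs5 fell below the filter on low counts, which left 83 members. With TMM, 46 of 83 members were lower in DDR2-plus (55.4%), beside 19.0% of all genes tested, but 11 with library size alone. Without the 4 rows of copies of other genes, 44 of 79 were lower with TMM and 11 with library size alone. The 2 members called higher with TMM were Ndufa4 and Sdha, beside 20.1% of all genes. In either direction 39.1% of all genes passed. The differences were small, with a median of -0.27 beside 0.04 for all genes, and a single member, Ndufa4l2, passed with a change of at least 2-fold, beside 15.9% of all genes. In 74 of 83 members the log2 fold change was negative, and in 32 the highest DDR2-plus library lay below the lowest PSC library, beside 14.6% of all genes; with Ndufa4, whose DDR2-plus libraries were all above PSC, the groups did not overlap in 33 members, beside 30.1% of all genes. From bulk counts, fewer cells of a type and less RNA per cell cannot be told apart.

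The direction of this difference depended on the scaling, and the libraries differed in their share of type I collagen. Col1a1 and Col1a2 together held 5.97% ± 1.46 of the counts in DDR2-plus and 22.85% ± 0.834 in PSC (SD, n = 5 each; two-sided exact permutation test, p = 0.00794, the smallest that 5 against 5 libraries can give). As a share of all counts the members' groups overlapped, at 0.807% ± 0.0586 in DDR2-plus and 0.794% ± 0.0427 in PSC. With library size alone as the scale, 11 members were lower and 11 higher, their median was 0.004 and that of all genes 0.31, beside 9.98% of all genes lower and 35.1% higher. The members' median minus that of all genes was -0.31 with TMM, -0.30 with library size alone, -0.30 with DESeq2's size factors, -0.30 with upper-quartile factors and -0.30 where library size was computed without both collagens. The members' median thus lay below that of all genes by about the same amount under the 5 scalings. Because a change of scaling shifts all genes almost alike, that gap is nearly fixed in advance and is no check of the difference. The members' median was itself negative under 4 of the scalings.

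**Figure D1:**
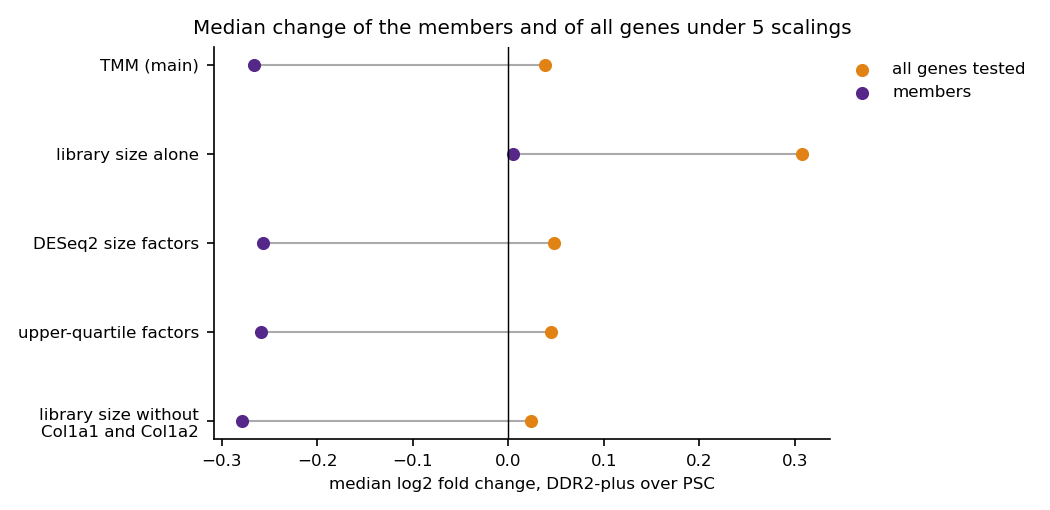
Median log2 fold change (DDR2-plus over PSC, horizontal axis) of the 83 tested members and of all genes tested under 5 scalings (rows). In each row the points for the members sit about 0.30 to the left of those for all genes. A change of scaling leaves this gap nearly fixed. Under library size alone the members' median is 0.004 and that of all genes 0.31.

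Also with library size alone, 11 members stayed lower: Ndufa1, Ndufa3, Ndufa13, Ndufb7, Ndufb10, Ndufs7 and Ndufv1 of complex I, Cox6a1 and Ndufa4l2 of complex IV, and Atp5e and Atp5h of complex V. These were past the threshold in each of the 20 alternative settings tried. Under that scale Ndufa4, Sdha, Sdhd, Ndufb3, Ndufc2, Ndufs1, Uqcrb, Uqcrh, Cox7c, Atp5b and Atp5g3 passed as higher, and none of the 46 members called lower with TMM did. In every other alternative 42 of those 46 were called lower.

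Summed over all members, the TMM-scaled level was 7385, 7088, 7989.9, 7156 and 7099.8 CPM in DDR2-plus libraries 1 to 5 and 9248, 8264, 8832, 8319.8 and 8919 in PSC libraries 1 to 5. With TMM each DDR2-plus library lay below each PSC library, and the means, 7344 ± 381 and 8717 ± 418 CPM (SD, n = 5 each), differed by 15.7%. With library size alone the ratio of the means was 1.02 and the groups overlapped. The groups also overlapped with library size without both collagens, where DDR2-plus library 3 had 9750 CPM and PSC library 4 had 9700. By complex, the TMM ratio of DDR2-plus to PSC was lowest for complex I, at 0.798 (2419 ± 146 against 3031 ± 166 CPM). It was 0.837 for complex IV, 0.859 for complex III, 0.865 for complex V and 0.968 for complex II (481 ± 14.4 against 497 ± 32.6). With TMM the groups did not overlap in complexes I and V, overlapped in III and IV through DDR2-plus library 3, and overlapped broadly in II. Those of complex V overlapped with upper-quartile factors and with library size without both collagens. With library size alone the 5 ratios were 0.963 (I), 1.17 (II), 1.04 (III), 1.01 (IV) and 1.04 (V). Without the member with the most counts in each complex the TMM ratios were 0.806 (I), 0.874 (II), 0.887 (III), 0.872 (IV) and 0.837 (V).

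**Figure D2:**
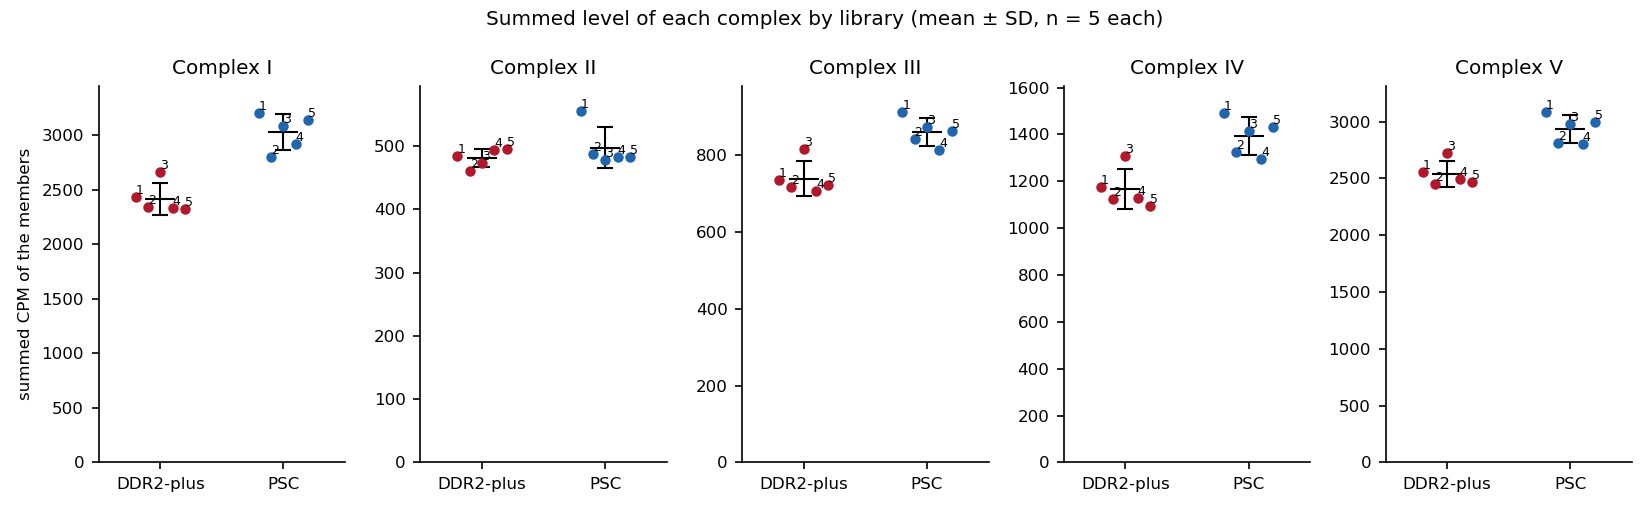
Summed TMM-scaled CPM of the members of each complex (vertical axis, from 0), by library (points, numbered 1 to 5) with mean and SD bars for DDR2-plus and PSC. The DDR2-plus points lie below the PSC points without overlap for complex I (2419 against 3031 on average) and complex V (2539 against 2935). They mix for complex II (481 against 497). With library size alone the groups overlap in all 5, and those of complex V also with upper-quartile factors and with library size without both collagens.

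The libraries of a group also differed among themselves in a shared way. Of 80 members that are not copies of another gene, 59 were highest, among the DDR2-plus libraries, in library 3, which stood 0.15 above its group's mean on the log2 scale in the median member. That library also had the group's highest share of type I collagen, 8.24% where the others had 4.56% to 6.38%, and the highest level of the ribosomal RNA gene Rn45s, 5005 CPM where the others had 3006 to 3601. Among the PSC libraries, number 2 was lowest for 40 of the 80 and number 1 highest for 35. Without DDR2-plus library 3, 49 members were lower and 2 higher, and the median was -0.33. Rn45s itself was lower in DDR2-plus, with means of 3593 ± 821 and 6933 ± 873 CPM (5 libraries each, SD; two-sided exact permutation p = 0.00794), and its part in the result was not tested.

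Complex I had the lowest median, -0.33 with TMM and -0.06 with library size alone. Of 37 tested members 23 were lower and 0 higher with TMM (7 and 3 with library size alone). Beside the counts of this and the other complexes, 19.0% of all genes tested were lower and 20.1% higher with TMM. With library size alone 9.98% of all genes were lower and 35.1% higher. The 7 core subunits, which carry the flavin and the iron-sulfur clusters, had a median of -0.41 with 4 lower (-0.14 with library size alone, 2 lower and 1 higher). Of 27 accessory subunits, which surround the core, 17 were lower (with library size alone, 5 lower and 2 higher). Ndufv1, which binds NADH and the flavin, was at 60.9, 61.7, 66.8, 64.4 and 70.9 CPM in DDR2-plus libraries 1 to 5 and 104, 94.2, 87.4, 89.0 and 91.1 in PSC libraries 1 to 5. The groups did not overlap (log2 fold change -0.52, SE 0.0719, adjusted p = 0.000105). Ndufs7 and Ndufs8, which carry iron-sulfur clusters close to coenzyme Q, were lower at -0.55 (adjusted p = 5.96e-05) and -0.42 (adjusted p = 0.00263). Core subunits that did not pass were Ndufs3 at -0.21 (adjusted p = 0.119), Ndufv2 at -0.12 (adjusted p = 0.241) and Ndufs1, the largest of the core subunits, at 0.10 (adjusted p = 0.499).

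Among the accessory subunits the largest fold changes were those of Ndufa1 and Ndufb4. Ndufa1, a small subunit of the membrane arm (chromosome X, 37187588 to 37191163 on the minus strand), had levels of 74.9, 85.7, 92.8, 81.2 and 79.8 CPM in DDR2-plus libraries 1 to 5 and 130.4, 109, 133, 118 and 132 CPM in PSC 1 to 5. Every DDR2-plus library was lower than every PSC library, with 82.9 ± 6.75 CPM against 125 ± 10.5 (SD, n = 5 each); log2 fold change -0.59, SE 0.0802, adjusted p = 9.02e-05. Per kilobase of transcript it had the highest level of complex I in PSC, at 298 CPM against 198 in DDR2-plus.

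Ndufb4, another membrane-arm subunit, stood at 14.3, 12.2, 12.8, 13.7 and 14.7 CPM in the DDR2-plus libraries and at 22.9, 19.1, 20.3, 16.6 and 22.9 in the PSC libraries (log2 fold change -0.59, SE 0.121, adjusted p = 0.00203). The groups were separate, but 37.0% of its 50-base windows also occur in other annotated genes, among them the copy Ndufb4c, whose own row was lower as well, at -0.37 (adjusted p = 0.0146). Ndufa13, also known as GRIM-19, had the most counts of complex I, with 136, 132, 146, 130.3 and 132 CPM against 198, 178, 215, 191 and 205 in PSC. It too was separate between groups (log2 fold change -0.55, SE 0.0667, adjusted p = 3.93e-05), and 30.0% of its exonic bases overlap Tssk6, from which unstranded reads cannot be told apart. Ndufs5, an accessory subunit, had 78 counts in all, whereas the row of its transcribed pseudogene Ndufs5-ps had 33193. The level of Ndufs5 thus cannot be read from its own row. The pseudogene's row was lower in DDR2-plus, at -0.29 (adjusted p = 0.0152).

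Accessory subunits that did not pass included Ndufc2 at 0.00 (adjusted p = 0.977) and Ndufb2 at -0.09 (adjusted p = 0.427), and Ndufb3 had the highest log2 fold change of the complex, 0.16 (adjusted p = 0.206), which did not pass. Complex I thus ranged from -0.59 to 0.16. Over all complexes, 29 members share more than 10% of their windows or exonic bases with another gene or are rows of copies. Of those tested, 16 of 28 were lower, and of the 55 members without such sharing 30 were lower and 2 higher. With library size alone these counts were 3 lower and 2 higher, and 8 lower and 9 higher. Members named in this text that share windows include Uqcrb (43.4%), Ndufs3 (39.7%), Atp5g2 (38.3%), Atp5pb (37.6%) and Cox5a (32.0%).

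**Figure D3:**
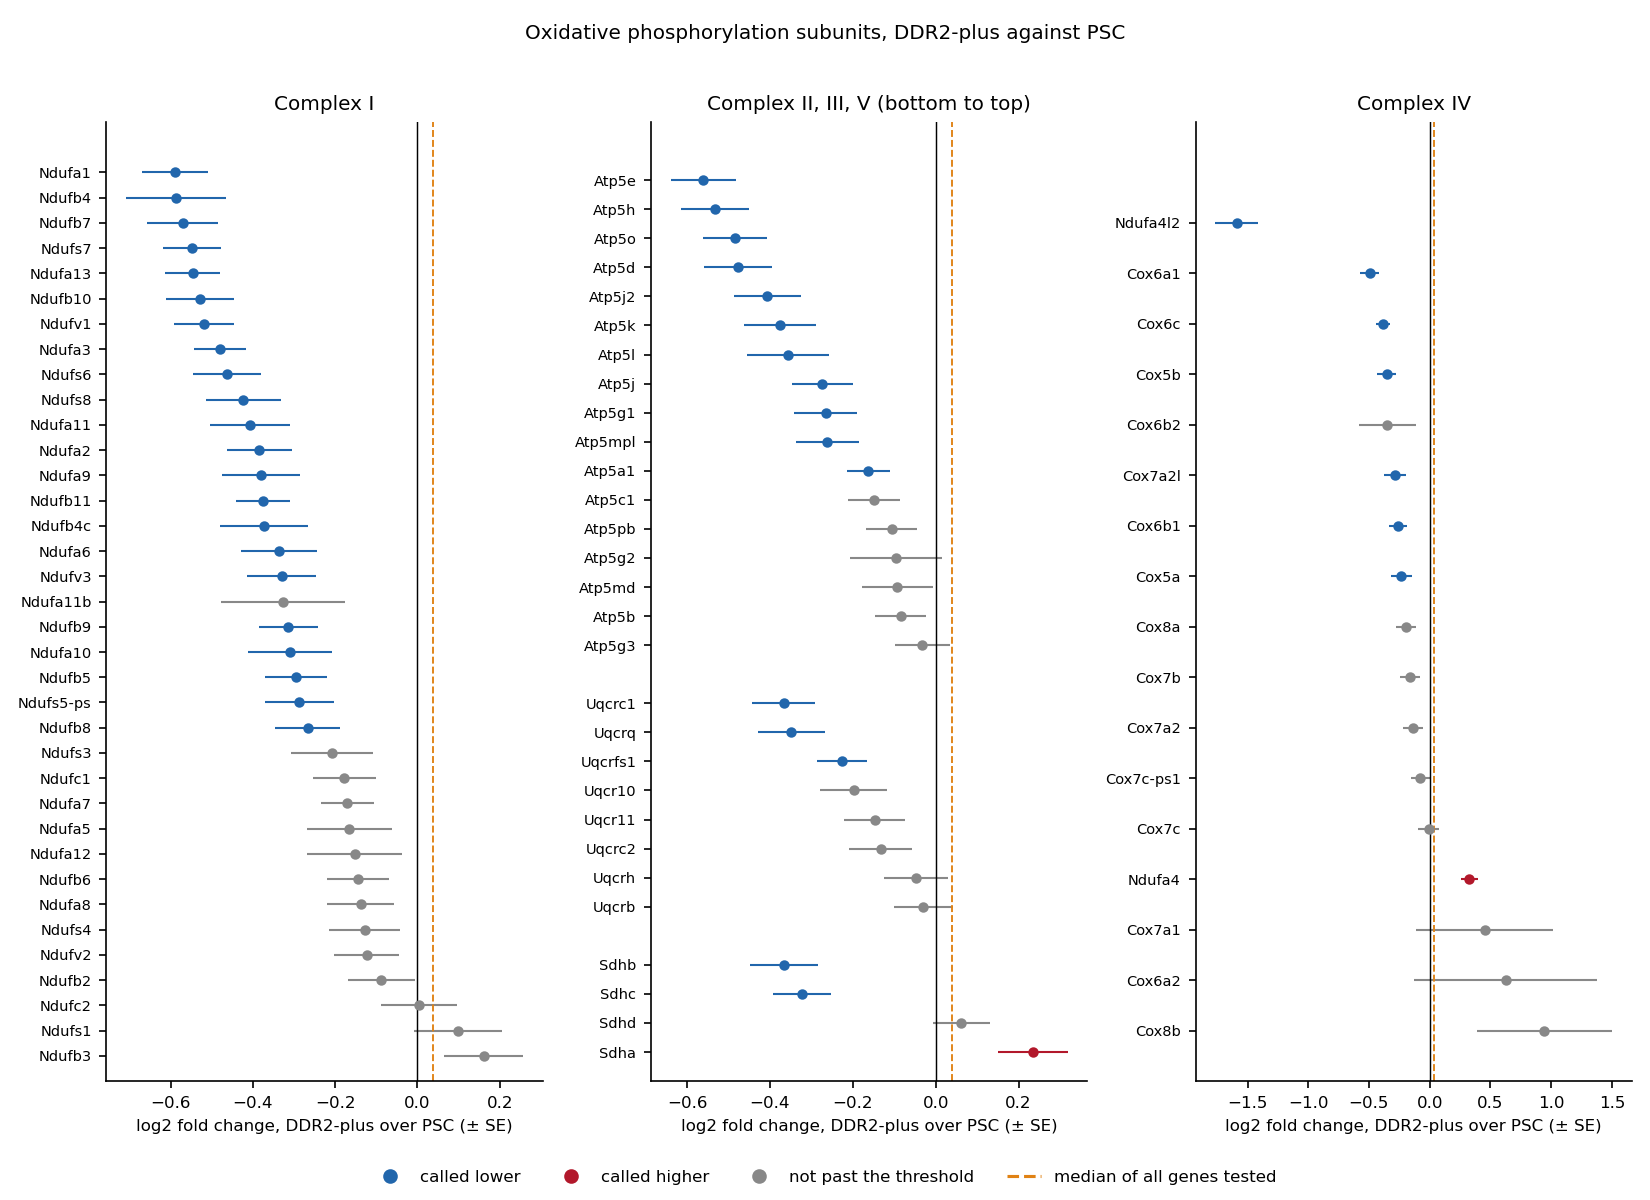
Log2 fold change (DDR2-plus over PSC, TMM, horizontal axis) with its SE for 82 of the 83 tested members, ordered within complexes I to V and coloured by call, with the median of all genes, 0.04, as a dashed line. Most points lie to the left of that line, Ndufa4l2 stands apart at -1.59, and Ndufa4 and Sdha are the members called higher; with library size alone the members' median is 0.004 and 11 are called in each direction.

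Within complex II, 2 subunits were called lower and 1 higher with TMM (0 and 2 with library size alone). Sdhb, the iron-sulfur subunit (chromosome 4, 140961203 to 140979193 on the plus strand), had 98.8, 97.3, 120.2, 102 and 110.2 CPM in DDR2-plus and 151, 129, 124, 129.9 and 147 in PSC. It was lower in each DDR2-plus library (log2 fold change -0.37, SE 0.0824, adjusted p = 0.00352). Sdhc, which anchors the enzyme in the membrane, had 72.1, 63.2, 75.2, 68.9 and 72.6 CPM against 88.2, 89.6, 95.6, 81.8 and 85.2, again without overlap (log2 fold change -0.32, SE 0.0704, adjusted p = 0.00288).

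Sdha, the flavin-bearing subunit that oxidises succinate (chromosome 13, 74322254 to 74350280 on the minus strand), had the highest level of the complex, at 189, 177, 162, 192 and 193 CPM in DDR2-plus and 182, 157, 147, 154 and 136 in PSC. The groups overlapped through PSC library 1, and the call of higher was close to the threshold (log2 fold change 0.23, SE 0.0843, adjusted p = 0.0431), past it in 10 of the 20 alternatives with adjusted p between 0.00036 and 0.103. Leaving out any library but DDR2-plus 3 or PSC 1 ended the call, with adjusted p from 0.0668 to 0.103. The other membrane anchor, Sdhd, was at 0.06 (adjusted p = 0.520). Within each library the count of Sdha per count of Sdhb, which no scaling changes, was 1.74 ± 0.233 in DDR2-plus and 1.15 ± 0.123 in PSC (SD, n = 5 each) without overlap. This ratio and the similar ratios of complex IV genes below were chosen after their values were seen and are given as descriptions, with no test.

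The 8 genes of complex III all had negative log2 fold changes with TMM, from -0.37 to -0.03, and 3 passed as lower. With library size alone 0 were lower and 2 higher, beside 9.98% and 35.1% of all genes. Their median was -0.17 with TMM and 0.10 with library size alone. Uqcrc1, a core protein of the matrix side and the most highly counted of the complex, had 171, 161, 194, 159 and 166 CPM in DDR2-plus and 231, 221, 239, 209 and 199 in PSC. No DDR2-plus library reached the lowest PSC library (log2 fold change -0.37, SE 0.0756, adjusted p = 0.00197). Uqcrq, a small membrane subunit, had 99.8, 97.3, 114, 98.4 and 94.2 CPM against 139.5, 116, 131, 115 and 139.8 (log2 fold change -0.35, SE 0.0809, adjusted p = 0.00427). Its groups were separate by a narrow gap, between DDR2-plus library 3 and PSC library 4. Uqcrfs1, the Rieske iron-sulfur protein, was lower at -0.23 (adjusted p = 0.0106), also without overlap, whereas the other core protein Uqcrc2 was at -0.13 (adjusted p = 0.185) and the small subunits Uqcrb and Uqcrh at -0.03 (adjusted p = 0.776) and -0.05 (adjusted p = 0.665).

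Complex IV had the widest range, -1.59 to 0.94, and a median of -0.19 with TMM and 0.08 with library size alone. Of 10 subunits of the common form 5 were lower and 1, Ndufa4, higher (with library size alone, 1 and 2). Cox6a1, a regulatory subunit with the highest count level among the members of complex IV, had 206, 207, 246, 191 and 200.3 CPM in DDR2-plus and 305, 269, 314, 286 and 306 in PSC. All DDR2-plus libraries lay below PSC, although library 3 was well above its group (log2 fold change -0.49, SE 0.0780, adjusted p = 0.000287). Cox6c and Cox5b were lower at -0.38 (adjusted p = 0.000266) and -0.36 (adjusted p = 0.00377), and Cox5a, which like Cox5b is a matrix-side subunit, was near the threshold at -0.23 (adjusted p = 0.0442) and passed in 8 of 20 alternatives. Cox7c and Cox8a were at -0.01 (adjusted p = 0.943) and -0.19 (adjusted p = 0.0772).

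Ndufa4, named for complex I but known as a subunit of complex IV, and its paralog Ndufa4l2 went in opposite directions. Ndufa4 (chromosome 6, 11900292 to 11907497 on the minus strand) had 154, 138, 153, 146 and 131 CPM in DDR2-plus and 124, 117, 116, 105 and 115 in PSC. Each DDR2-plus library was above each PSC library (log2 fold change 0.33, SE 0.0694, adjusted p = 0.00246), and the gene was called higher in all 20 alternatives, with adjusted p from 4.03e-05 to 0.00945. Ndufa4l2 (chromosome 10, 127514967 to 127517154 on the plus strand), which is known as a gene induced by hypoxia through HIF-1, had 18.7, 20.2, 21.3, 12.5 and 22.9 CPM in DDR2-plus and 69.4, 49.5, 64.0, 41.2 and 63.5 in PSC.

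Ndufa4l2 was 3.01-fold lower in DDR2-plus, the largest difference of any member (log2 fold change -1.59, SE 0.177, adjusted p = 1.86e-05), with 19.1 ± 3.99 CPM against 57.5 ± 11.7 (SD, n = 5 each), and lower in all 20 alternatives. The ratio of Ndufa4l2 to Ndufa4 counts within a library was 0.134 ± 0.0329 in DDR2-plus and 0.496 ± 0.0815 in PSC (SD, n = 5 each), with no overlap.

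Cox4i1 and Cox4i2, alternative forms of subunit 4 that the symbol rule leaves out, also went in opposite directions. Cox4i1, the common form, had 281, 281, 336, 264 and 274 CPM in DDR2-plus and 416, 356, 386, 371 and 406 in PSC (log2 fold change -0.43, SE 0.0772, adjusted p = 0.000758). Its groups did not overlap. Cox4i2, the form known from lung and from low oxygen, was far less abundant, at 9.09, 6.85, 6.21, 8.94 and 6.34 CPM in DDR2-plus and 4.50, 4.68, 5.19, 4.83 and 5.35 in PSC (log2 fold change 0.61, SE 0.193, adjusted p = 0.0241).

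The higher level of Cox4i2 in DDR2-plus was past the threshold with all libraries but not without DDR2-plus library 1 (adjusted p = 0.068) or library 4 (0.076). Per count of Cox4i1 it was 0.0264 ± 0.0065 in DDR2-plus and 0.0127 ± 0.00107 in PSC (SD, n = 5 each), without overlap. The ratio of Ndufa4l2 to its partner was thus lower in DDR2-plus and that of Cox4i2 higher.

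**Figure D4:**
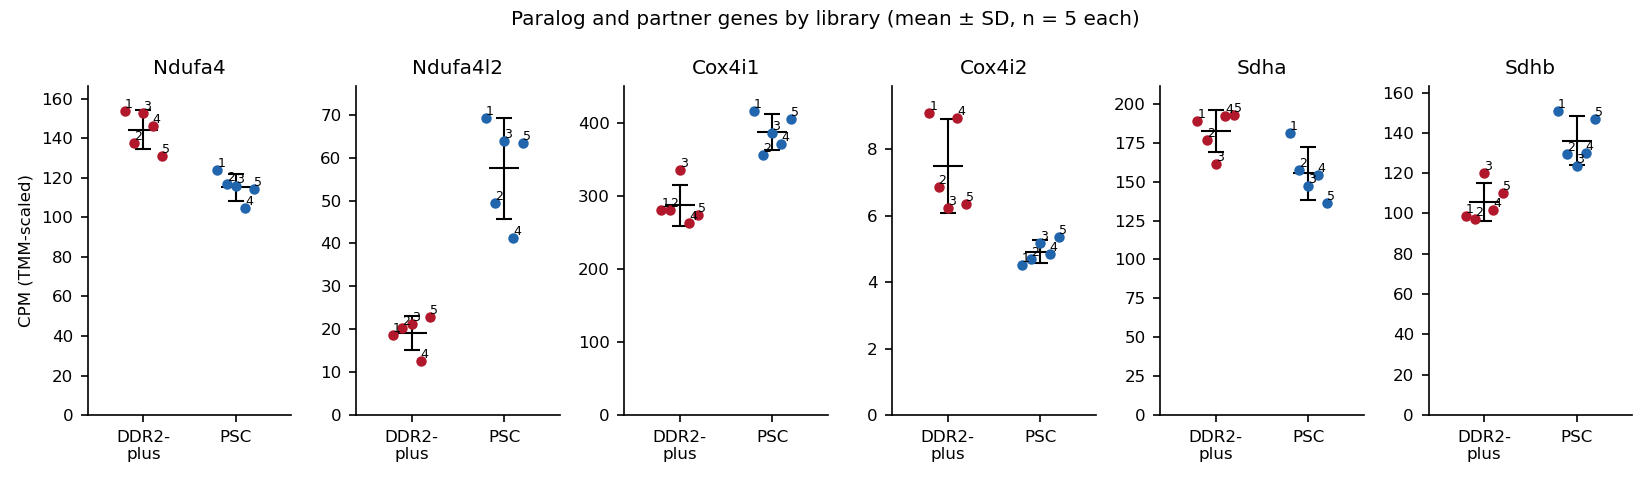
TMM-scaled CPM (vertical axes, each from 0) of Ndufa4, Ndufa4l2, Cox4i1, Cox4i2, Sdha and Sdhb by library (points, numbered 1 to 5) with mean and SD bars for DDR2-plus and PSC. Ndufa4, Cox4i2 and Sdha have the higher mean in DDR2-plus, Ndufa4l2, Cox4i1 and Sdhb in PSC, and the groups overlap for Sdha alone.

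The forms of complex IV subunits that are known from heart and skeletal muscle or testis had few counts and did not pass the test. Cox6a2 had at most 0.611 CPM in any library (log2 fold change 0.62, SE 0.751, adjusted p = 0.550), and Cox7a1 at most 1.86 (log2 fold change 0.45, SE 0.564, adjusted p = 0.564). Cox8b had 1.58, 1.24, 1.75, 1.16 and 0.958 CPM in DDR2-plus and 1.60, 0.338, 0.579, 0.343 and 0.598 in PSC. It was low in 4 PSC libraries and at the DDR2-plus level in PSC library 1 (log2 fold change 0.94, SE 0.557, adjusted p = 0.203). Without PSC library 1 it was called higher, at a log2 fold change of 1.52 (adjusted p = 0.037), the only 1 of the 20 alternatives in which it passed. Cox6b2, a testis form, had between 3.36 and 7.96 CPM (log2 fold change -0.35, SE 0.234, adjusted p = 0.266).

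Of the common partners, Cox6b1 was lower at -0.26 (adjusted p = 0.0123), with 147, 135, 162, 139 and 134 CPM in DDR2-plus and 191, 167, 166, 162 and 177 in PSC, which overlap by DDR2-plus library 3 and PSC library 4. Cox7a2 and Cox7b, the forms of nearly all tissues, were at -0.14 (adjusted p = 0.207) and -0.16 (adjusted p = 0.137). Cox7a2l, a relative of Cox7a2 known for joining complexes into supercomplexes, was lower at -0.29 (adjusted p = 0.0267) with overlapping groups, and passed in 13 of 20 alternatives.

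All 17 genes of complex V had negative log2 fold changes with TMM, from -0.56 to -0.03, and 11 passed as lower (with library size alone, 2 lower and 2 higher); the median was -0.27 with TMM and 0.01 with library size alone. Atp5b, the catalytic beta subunit and the member with the most counts of all, had 729, 708, 781, 740.4 and 728 CPM in DDR2-plus and 861, 780.2, 783, 740.2 and 745 in PSC. The ranges overlapped and the test was not passed (log2 fold change -0.08, SE 0.0613, adjusted p = 0.306). Its partner Atp5a1, the alpha subunit, differed little but with a narrow spread, with 474 ± 10.2 CPM against 530.4 ± 12.3 (SD, n = 5 each) and an adjusted p of 0.0257 at a log2 fold change of -0.16, and Atp5c1, the gamma subunit of the central stalk, was at -0.15 (adjusted p = 0.0760).

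The small subunits of the central stalk, epsilon and delta, were called lower. Atp5e, the epsilon subunit (chromosome 2, 174461072 to 174464105 on the minus strand), had 129.9, 115, 132, 109 and 112 CPM in DDR2-plus and 178, 159, 175, 173 and 197 in PSC. All DDR2-plus libraries were below all PSC libraries (log2 fold change -0.56, SE 0.0786, adjusted p = 0.000114). Atp5d, the delta subunit, was lower at -0.48 (adjusted p = 0.000549).

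In the stalk that holds the head in place, 3 of 4 genes were lower (1 with library size alone). Atp5h, subunit d, had 43.1, 41.3, 48.8, 41.2 and 38.5 CPM in DDR2-plus and 57.8, 63.2, 67.4, 58.6 and 61.3 in PSC. Its groups were far apart (log2 fold change -0.53, SE 0.0817, adjusted p = 0.000231), though 36.9% of its windows also occur in other annotated genes. Atp5o, the oligomycin-sensitivity protein, was lower at -0.49 (adjusted p = 0.000300) and Atp5j, coupling factor 6, at -0.27 (adjusted p = 0.0105), while Atp5pb, subunit b, was at -0.11 (adjusted p = 0.193). Of 5 small subunits of the membrane part 4 were lower with TMM and 0 with library size alone, among them Atp5j2 at -0.41 (adjusted p = 0.00153) and Atp5k, subunit e, at -0.38 (adjusted p = 0.00402).

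The proton-driven ring is made of subunit c, for which Atp5g1, Atp5g2 and Atp5g3 encode the same mature protein. Atp5g3 made up most of their counts, with 229.9, 220.3, 254, 221 and 219 CPM in DDR2-plus and 249.8, 222, 244, 218 and 235 in PSC, ranges that nearly coincide (log2 fold change -0.03, SE 0.0669, adjusted p = 0.744). Atp5g1 had 53.9, 50.1, 62.3, 54.9 and 53.8 CPM against 70.7, 61.4, 65.1, 65.1 and 68.4 and was lower by the test with slight overlap (log2 fold change -0.27, SE 0.0759, adjusted p = 0.0142). Atp5g2 had 18.6, 20.1, 20.3, 18.2 and 17.1 CPM against 21.5, 16.5, 21.1, 19.8 and 22.1 (log2 fold change -0.10, SE 0.110, adjusted p = 0.531). Of the windows of Atp5g2, 38.3% also occur in other annotated genes. The 3 genes were tested each on its own, and the difference between their changes was not tested.

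Levels of the members per kilobase of transcript kept their order between the groups (Spearman's rho 0.982 across 82 members with a length, a description over genes that share the same libraries). The median member had 81.7 CPM per kilobase, and the middle range ran from 45.4 to 135 (quartiles).

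Genes of the surrounding pathway were read from lists that were chosen with earlier results of these data known. Beside the counts for these lists and for the ribosomal families below, 19.0% of all genes tested were lower and 20.1% higher with TMM. With library size alone the shares were 9.98% lower and 35.1% higher. Of 49 tested assembly factors, which build the complexes without being part of them, 14 were lower and 2 higher (with library size alone, 3 and 11), with a median of -0.11 with TMM and 0.17 with library size alone. The lowest p among them belonged to Sdhaf1, which helps to insert iron-sulfur clusters into Sdhb, with 11.9 ± 1.06 CPM against 23.2 ± 2.56 (SD, n = 5 each); the groups were separate (log2 fold change -0.97, SE 0.117, adjusted p = 3.61e-05). Coa3 and Uqcc2, for complexes IV and III, were lower at -0.53 (adjusted p = 0.000157) and -0.51 (adjusted p = 0.000430), and Cox14 and Foxred1 were higher at 0.32 (adjusted p = 0.00206) and 0.53 (adjusted p = 0.00243).

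Among 9 electron carriers and donors 3 were lower and 3 higher (with library size alone, 1 and 3). The subunits of the electron-transferring flavoprotein, which brings electrons from fatty acid oxidation to coenzyme Q, went apart, with Etfb at -0.57 (adjusted p = 9.47e-05) and Etfa at 0.61 (adjusted p = 0.000274). Cyc1, the cytochrome c1 of complex III, and Dhodh were lower at -0.32 (adjusted p = 0.0161) and -0.54 (adjusted p = 0.0435), Sqor and Gpd2, which also feed coenzyme Q, were higher at 1.12 (adjusted p = 0.000805) and 0.96 (adjusted p = 0.00317), and Cycs, cytochrome c, was at -0.09 (adjusted p = 0.503). Of 13 genes of coenzyme Q synthesis 0 were lower and 2 higher (with library size alone, 0 and 3). Coq10b, a coenzyme Q binding protein, had 87.1, 68.7, 54.6, 80.0 and 73.4 CPM in DDR2-plus and 27.9, 28.8, 20.2, 26.6 and 24.6 in PSC (log2 fold change 1.51, SE 0.133, adjusted p = 3.11e-06), and Coq8a was at 0.56 (adjusted p = 0.0204).

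In the tricarboxylic acid cycle, which supplies NADH and succinate, 7 of 18 enzymes (38.9%) were lower and 2 higher with TMM. With library size alone 0 were lower and 5 higher, beside 9.98% and 35.1% of all genes. Citrate synthase (Cs) and the mitochondrial dehydrogenases Idh2 and Mdh2 were lower at -0.34 (adjusted p = 0.00190), -0.47 (adjusted p = 0.000369) and -0.30 (adjusted p = 0.00296), and Idh3a and Suclg2 were higher at 0.32 (adjusted p = 0.00451) and 0.31 (adjusted p = 0.0290). Of 23 genes of import and carriers 7 were lower and 2 higher (with library size alone, 1 and 7), with Tomm5 of the outer-membrane pore at -0.94 (adjusted p = 6.60e-05) and the ADP/ATP carrier Slc25a5 at -0.46 (adjusted p = 0.000568). Tomm7 and Tomm20 were higher at 0.21 (adjusted p = 0.0349) and 0.33 (adjusted p = 0.0386), and Timm13 was lower at -0.47 (adjusted p = 0.000374).

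Of 18 tested regulators of mitochondrial biogenesis 2 were lower and 2 higher (with library size alone, 0 and 8). Polrmt, the mitochondrial RNA polymerase, and Esrra, an estrogen-related receptor, were lower at -0.57 (adjusted p = 0.00531) and -0.61 (adjusted p = 0.0306). Gabpb1, a subunit of the ETS factor GABP, was higher at 0.70 (adjusted p = 0.000568), and so was the receptor Esrrg, with 6.31, 3.88, 4.60, 2.81 and 3.75 CPM in DDR2-plus and 0.0188, 0.473, 0, 0.0916 and 0 in PSC (adjusted p = 0.00119). Ppargc1a, Nrf1 and Tfam, known as central regulators, did not pass, at -0.42 (adjusted p = 0.251), -0.10 (adjusted p = 0.346) and 0.38 (adjusted p = 0.0549).

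Ribosomal protein genes, which like the members are mostly short and highly expressed, were read in the same fit. Of 78 mitochondrial ribosomal proteins 38 were lower and 1 higher (with library size alone, 6 and 7), with a median of -0.30 with TMM and -0.02 with library size alone; the exception was Mrps6 at 0.88 (adjusted p = 3.05e-05). Mrps28, Mrps34 and Mrpl28 had the smallest p among those lower, at -0.61 (adjusted p = 0.000109), -0.75 (adjusted p = 0.000234) and -0.45 (adjusted p = 0.000295). Of 83 cytosolic ribosomal proteins 68 were lower and 1, Rpl7l1, higher at 0.25 (adjusted p = 0.0132) (with library size alone, 11 and 3), with a median of -0.35 with TMM and -0.08 with library size alone. Rpl3 and Rpl10 were at -0.51 (adjusted p = 6.60e-05) and -0.68 (adjusted p = 3.94e-05), and Rps4l at -0.67 (adjusted p = 1.22e-05). The members' median of -0.27 lay between that of all genes and those of both ribosomal families, and no difference between the families was tested.

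The members are short: the median transcript had 809 bases, against 2944 over 15253 tested genes with a length, and 49 of 81 members were under 1000 bases. Among genes that are no members, the median log2 fold change went from -0.08 under 700 bases and -0.18 from 700 up to 1000 to 0.14 at 4000 and over. In the same length classes the members' medians were -0.26 (34 members), -0.36 (15) and -0.18 (2). Level moved with the change too, as 41.8% of the other genes with a mean of at least 100 CPM were lower, beside 59.3% of members at that level. The part of length and level in the members' difference was not tested.

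**Figure D5:**
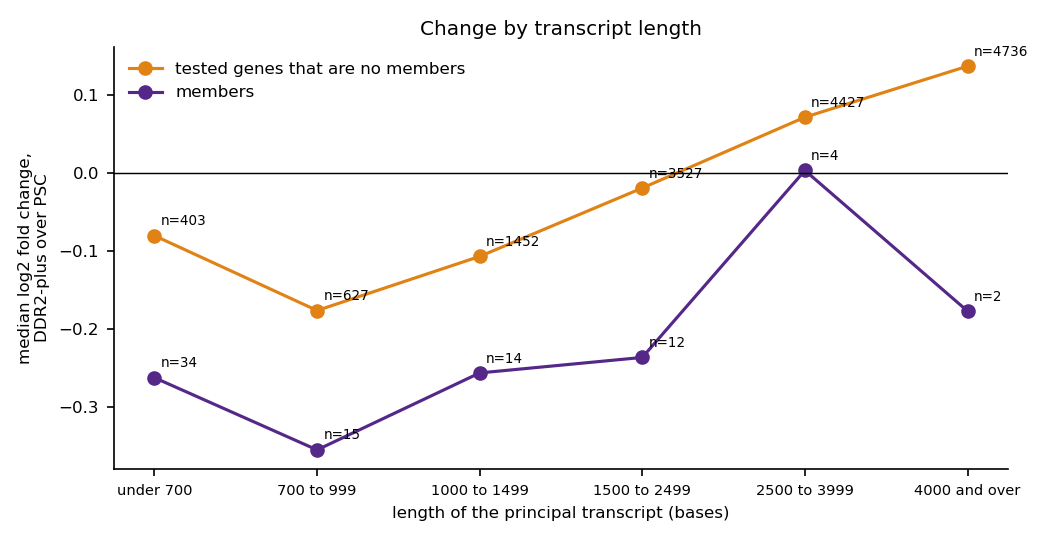
Median log2 fold change (DDR2-plus over PSC, TMM, vertical axis) in 6 classes of transcript length (horizontal axis) for tested genes that are no members and for the 81 members with a length; n is written at each point. The other genes go from -0.08 in the shortest class to 0.14 in the longest, and the members lie below them in each class, with only 4 and 2 members in the last pair of classes.

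Markers of other cell types were summed in each library, and their calls stand beside 20.1% of all genes higher and 19.0% lower. Chondrocyte markers were higher in DDR2-plus for 8 of 8 genes (86910 to 120000 CPM against 12130 to 27110), and osteoblast markers lower for 6 of 8 (47300 to 85540 against 262400 to 292800). The osteoblast list includes Col1a1 and Col1a2, which held 5.97% of the counts in DDR2-plus and 22.85% in PSC. Its sum therefore largely restates the type I collagen difference given above. Markers of suture mesenchyme and the Ctsk lineage were lower for 5 of 7 and higher for 1 (460 to 539 against 881 to 979 CPM).

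Schwann and glial markers were higher for 8 of 8 (436.5 to 948.5 CPM against 40.7 to 96.2), neuron markers for 9 of 12 (73.5 to 199 against 34.6 to 52.4) and pineal and photoreceptor markers for 8 of 9 tested (183 to 285 against 5.00 to 7.72, with Cdhr1 and Aanat at 0 in PSC). Skeletal muscle markers summed to 44.2 to 90.8 CPM in DDR2-plus and 22.3 to 45.3 in PSC, with 3 of 9 higher. Osteoclast and macrophage markers summed to 564 to 883 CPM against 152 to 395, with 2 of 5 higher and 1 lower. Fat markers summed to 5.09 to 20.4 CPM against 1.85 to 6.24, with Ucp1 at 0 in PSC, erythroid markers to 7.27 to 29.0 against 0.199 to 11.7, and endothelial markers to 21.5 to 40.2 against 17.9 to 40.4. The part of these cell types in the members' differences was not tested.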

How the data were processed

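The authors deposited raw counts for each gene symbol, which are whole numbers in the file; the authors' analysis used DESeq and build mm10, per the submitters' processing notes. Names of an aligner, a counter and an annotation were not given in the sources used here. Per the labels' protocols, cDNA was amplified from sorted cells and made into libraries with a transposase kit, which keeps no strand. Totals ranged from 43419129 to 62021992 counts. Amplified reads do not count separate molecules.

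The quasi-likelihood test of edgeR 4.0.16 (R 4.3.3) was fitted to all 10 libraries with TMM factors, filterByExpr, no covariates and Benjamini-Hochberg adjustment over 15416 genes, with a threshold of 0.05; each standard error is the absolute log2 fold change over the root of F. Alternatives were other scalings, filters and thresholds, a replicate term, DESeq2 1.42.0, limma-voom 3.58.1 and leaving out each library. Single measures of libraries were compared by two-sided exact permutation tests. In counts simulated from these libraries over 15089 genes, 50 genes, drawn without regard to level, were changed at each fold. Recovery by edgeR was 2% at 1.25-fold, 28% at 1.5-fold, 58% at 2-fold and 80% at 4-fold. Of the calls, 1.18% were genes left unchanged. Far fewer genes changed than the 39.1% called in the data, and genes of all levels were drawn. These rates therefore do not describe the members.

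Gene positions and lengths come from the GRCm38 annotation and promoters from RefSeq's GRCm38.p6 table; symbols were matched by name. Per library, values are given for up to 2 members per complex with the largest called change in each direction, for the member with the most counts and for the isoform sets; core complex I and complex II genes are named with their fold changes, and up to 3 genes of smallest p per direction of each pathway list. Other genes named were chosen after their values were seen. The members, lists and rules were chosen with earlier results of these data known. For 1 member, which is in the counts and medians, the own values are not reported here.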

Additional observations from a re-analysis of the deposited data

Results flagged for a closer look

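In groups of 5 libraries, 84 sets of values were examined for a library far from the others, and 6 stood apart, where chance alone gives about 1 in 20. In DDR2-plus library 3 the highest values were those of Cox4i1 (336.0 CPM, where the others had 263.5 to 281.4), Cox6a1 (246.2 CPM, others 191.0 to 206.9) and the summed members of complex III (817.9 CPM, others 707.0 to 735). In PSC library 1 they were those of Cox8b (1.601 CPM, others 0.338 to 0.598), Sdhd (134.2 CPM, others 110.9 to 117.4) and the summed members of complex II (554.9 CPM, others 478 to 487). Without DDR2-plus library 3 the ratio of DDR2-plus to PSC was 0.836 for complex III, beside 0.859 with it, and without PSC library 1 that of complex II was 0.997, beside 0.968.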

How the results depend on the processing

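With library size alone, 11 members were lower and 11 higher, where TMM gave 46 and 2; the medians were 0.004279 for all members, -0.05586 for complex I, 0.1403 for II, 0.09696 for III, 0.0762 for IV and 0.005427 for V, and the ratios of summed CPM 1.017 for all members, 0.9633 for I, 1.168 for II, 1.036 for III, 1.011 for IV and 1.044 for V. In 33 members the log2 fold change was negative with TMM and positive under that scale. Of these, 7 were called lower with TMM: Atp5a1 (0.11 with library size alone), Atp5g1 (0.01), Atp5mpl (0.01), Cox5a (0.04), Cox6b1 (0.01), Ndufb8 (0.0043) and Uqcrfs1 (0.05). Another 5 were called higher with library size alone: Atp5b (0.19), Atp5g3 (0.24), Cox7c (0.26), Uqcrb (0.24) and Uqcrh (0.22). The other 21 were called on neither scale. Calls of higher numbered 1 with no filter on low counts, with library size without both collagens and at an adjusted p under 0.01. Without the member with most counts in each complex, the ratio of complex II was 0.8737. Leaving out each library in turn gave 43 to 49 lower and 1 to 3 higher members, and ratios of 0.2483 to 0.2932 (Ndufa4l2 per Ndufa4), 1.93 to 2.234 (Cox4i2 per Cox4i1) and 1.454 to 1.611 (Sdha per Sdhb), added after the values were seen.

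The fit with the replicate number as a block gave 45 lower and 2 higher. Whether libraries of the same number share an animal or a preparation is not labelled. The correlations of their deviations were low, 0.0289 to 0.0532, although each library correlated best with its own number. The main fit and the permutation tests did not pair the libraries, and a shared origin was not tested. Cox4i2 was no longer past the threshold with the block (adjusted p = 0.0736). Ndufs5 was not tested, and Cox6a2, Cox7a1 and Cox8b had few counts.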
